A study of Homo sapiens with 35 samples.

Results

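HCT116 cells, a long-established line from a human colorectal carcinoma, were compared after knockdown of CDK8 and after knockdown of CDK19, both in low glucose medium. The members were the arrays whose titles name shCDK8 or shCDK19 cells in low glucose, 3 arrays for each line and 6 of the 35 arrays of the series, and the values of all genes on them were set against each other. In the first group the cells carried a short hairpin RNA against CDK8 (shCDK8), in the other a hairpin against CDK19 (shCDK19), and both had spent 24 h in low glucose DMEM after plating in McCoy's medium with fetal calf serum. The 3 arrays of cells with a non-target hairpin (shControl) in the same low glucose medium served to tell which line had moved. The 6 arrays of the shCDK8 and shCDK19 lines in normal growth, the untreated state of the labels, were used as a further condition. The labels name no hairpin sequence and no clone, and each target has 1 line, so the loss of a kinase and anything else that sets its line apart cannot be told apart. Nothing in the labels says that replicates came from separate cultures, so the spread behind the p-values is that between arrays and may be technical only.

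CDK8 and CDK19 are closely related cyclin-dependent kinases. Either can join cyclin C, MED12 and MED13 in the kinase module that docks reversibly on Mediator, the complex that carries signals from transcription factors to RNA polymerase II. CDK8 is known in colorectal cancer as a kinase with gene copy gains that takes part in beta-catenin-driven transcription, and the kinase module is also known to act on genes of the serum, hypoxia and interferon responses and of glucose metabolism.

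Values are log2 signals of Affymetrix whole-transcript arrays with 1 value per transcript cluster, and every difference below is shCDK8 minus shCDK19 on the log2 scale unless another is named. Errors after ± are standard errors of the difference (SE, 3 arrays per line), p-values are adjusted by the Benjamini-Hochberg method over all 18404 genes tested, and a gene passed the test when its adjusted p was under 0.05. The number of arrays limits the precision. The 9 low glucose arrays were alike in scale, with medians between 7.14 and 7.24, and between 8.89% and 9.63% of their transcript clusters sat at the shared floor of 4.32. Arrays of 1 line correlated with each other at 0.992 to 0.996, and arrays of shCDK8 with those of shCDK19 at 0.987 to 0.991. Of 12 colon epithelial markers 6 had a mean above 8, and the mean over the 12 was 9.14 to 9.22 on shCDK8 arrays, 9.22 to 9.31 on shCDK19 arrays and 9.15 to 9.19 on shControl arrays. The means of the fibroblast, leukocyte and endothelial marker lists lay between 5.87 and 6.77 on all 9 arrays. Among these 4 marker lists the epithelial one had 1 higher and 2 lower members in shCDK8 cells, the fibroblast one 1 lower of 12 and the leukocyte one 1 higher of 10, CD68 (1.01 ± 0.07), which is also a lysosomal protein of other cells. The fibroblast call, COL1A2, was lost without shCDK8 replicate 1, with all 35 arrays in 1 fit, in a fit of the 6 compared arrays alone and with a trended and robust variance, and 2 were lower without shCDK19 replicate 2.

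Both targets carried the reduction that the labels name. CDK8 shares its transcript cluster with ADRA1B, and this cluster read 8.21, 8.43 and 7.96 in shCDK8 cells, 10.30, 10.55 and 10.33 in shCDK19 cells and 10.36, 10.21 and 10.43 in shControl cells. The shCDK8 arrays lay below all 6 others, and the difference between the knockdown lines was -2.19 ± 0.11, 4.58-fold lower in shCDK8 cells (adjusted p = 4.89e-06 in a fit of every transcript cluster). CDK19 read 9.61, 9.93 and 9.84 in shCDK8 cells, 8.35, 8.30 and 8.09 in shCDK19 cells and 9.84, 9.73 and 9.84 in shControl cells. Here the shCDK19 arrays were the low ones, and CDK19 was 2.92-fold higher in shCDK8 than in shCDK19 cells (1.54 ± 0.087, adjusted p = 1.12e-06). Against shControl cells CDK19 differed by -0.01 in the shCDK8 line, so its level there was close to that of the control line.

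**Figure D1:**
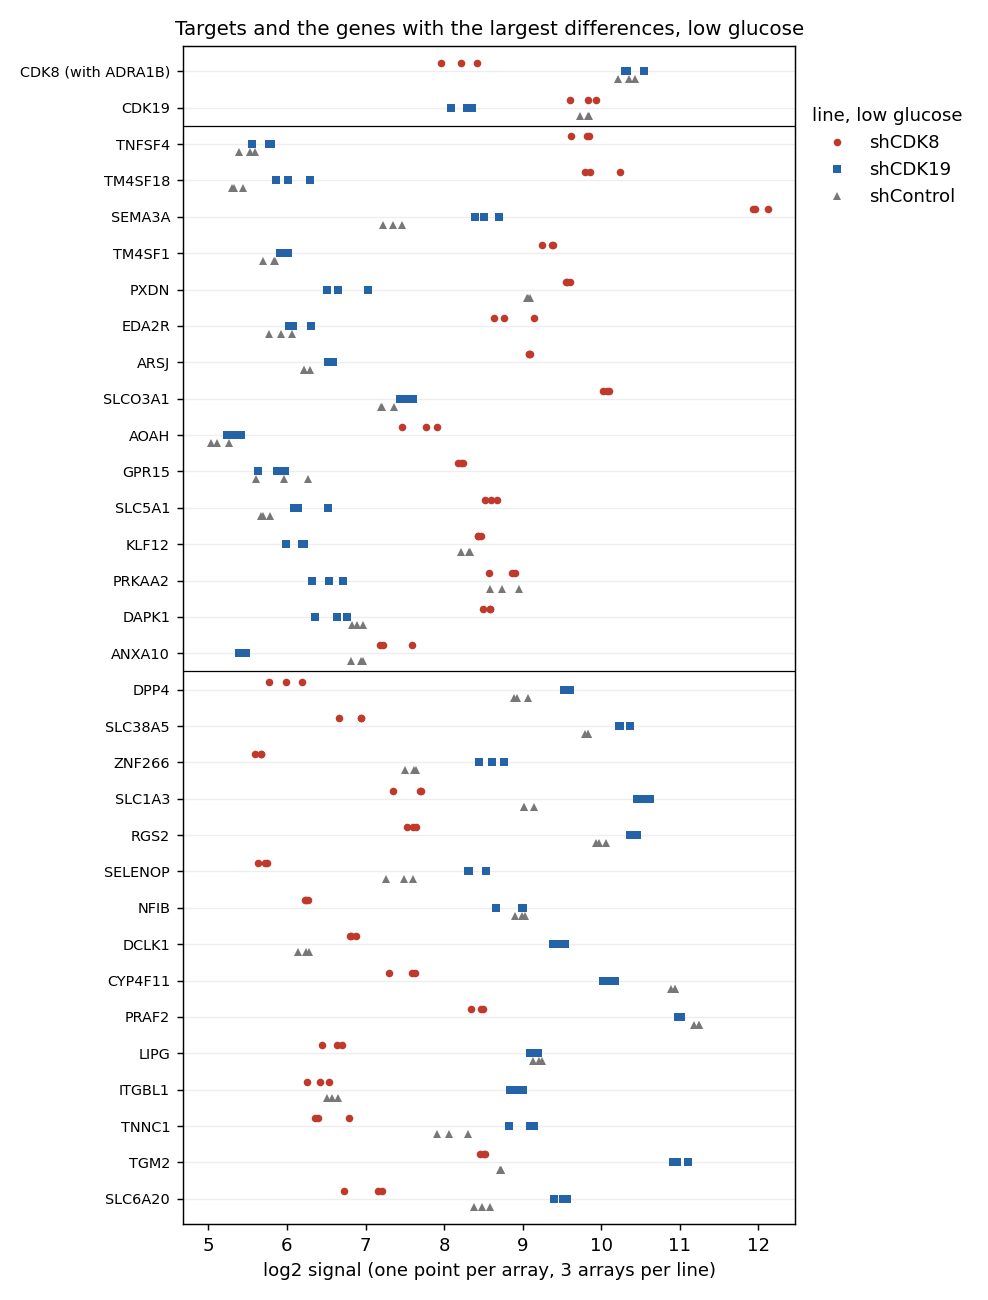
Log2 signal of the 2 targets, the 15 genes with the largest positive and the 15 with the largest negative difference, 1 point per array (red circles shCDK8, blue squares shCDK19, grey triangles shControl, 3 arrays each, all in low glucose). That red and blue points do not overlap was part of the rule that chose the 15 and 15 genes, and those of the targets do not overlap either. The grey points show which line departs: in TNFSF4 the shCDK8 line, in PRKAA2 the shCDK19 line.

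The lines differed in many genes. Of the 18404 genes, 4778 passed the test (26%), 2709 of them higher in shCDK8 cells (14.7%) and 2069 lower (11.2%). At least 2-fold apart were 211 genes (1.15%), 103 higher (0.56%) and 108 lower (0.587%). Most differences were small: the 25th and 75th percentiles of all genes were -0.13 and 0.12, and the 1st and 99th were -0.78 and 0.81. The arrays of the lines did not overlap in 6608 genes (35.9%). Counts of higher and lower list members below stand beside the 14.7% and 11.2% of all genes that passed in each direction. The surplus of higher genes depended on 1 array, since without shCDK19 replicate 3 the counts were 2076 higher and 2013 lower.

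**Figure D2:**
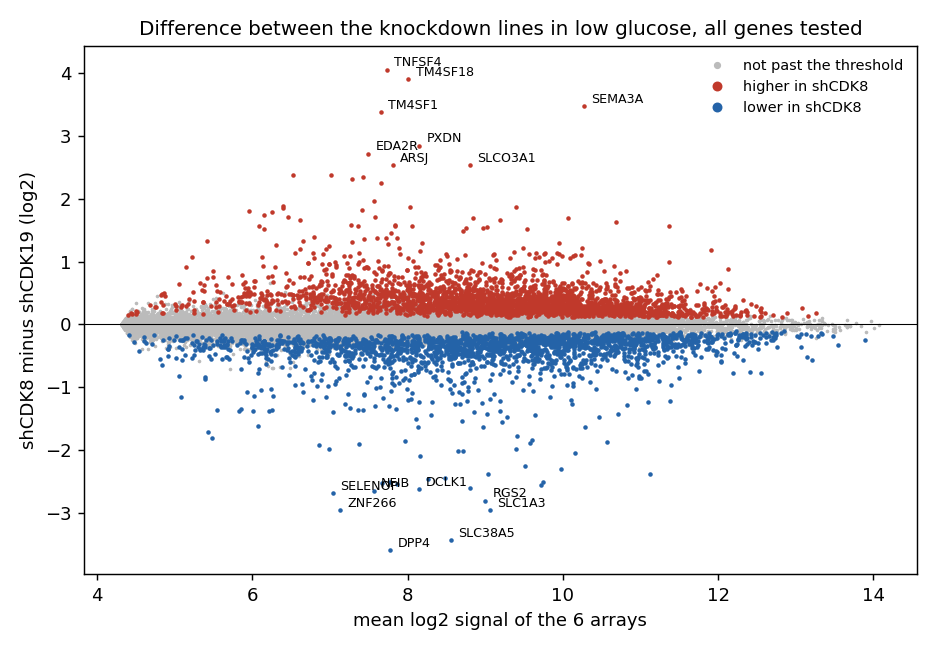
Difference between the lines (shCDK8 minus shCDK19, log2) against the mean log2 signal of the 6 low glucose arrays, 1 point per gene. Red points passed the test and were higher in shCDK8 cells, blue points passed and were lower, grey points did not pass, and the 8 genes with the largest difference on each side are named, from TNFSF4 at 4.05 down to DPP4 at -3.59.

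The control arrays showed which line accounted for a difference. Against shControl cells 4107 genes passed in the shCDK8 line (22.3%) and 3671 in the shCDK19 line (19.9%), in comparisons that share the 3 shControl arrays. Of the 4778 genes that differed between the knockdown lines, 1630 (34.1%) had passed against shControl only in the shCDK8 line, 1259 (26.3%) only in the shCDK19 line, 316 (6.61%) in both lines in opposite directions and 489 (10.2%) in both lines in the same direction. The remaining 1084 (22.7%) had passed in neither. Among the 211 genes at least 2-fold apart the opposite pattern was as frequent as the shCDK8 pattern, with 69 genes (32.7%) each. A further 30 of the 211 (14.2%) had passed only in the shCDK19 line, 42 (19.9%) in both lines in the same direction, and 1 in neither. Without shCDK19 replicate 3 the split of the shCDK19 line against shControl turned, with 1672 genes higher and 1473 lower, against 1677 higher and 1994 lower with all arrays.

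The highest genes included ligands that cells show or release. TNFSF4, the ligand of the T cell costimulatory receptor OX40, read 9.62, 9.84 and 9.82 in shCDK8 cells, 5.80, 5.77 and 5.56 in shCDK19 cells and 5.53, 5.59 and 5.39 in shControl cells. The shCDK8 arrays stood far above both other lines, which lay close together, and TNFSF4 was 16.6-fold higher in shCDK8 than in shCDK19 cells (4.05 ± 0.082, adjusted p = 1.34e-09). SEMA3A, a secreted guidance cue that signals through neuropilin and plexin receptors, read 11.94, 12.12 and 11.96 in shCDK8 cells, 8.51, 8.70 and 8.39 in shCDK19 cells and 7.22, 7.46 and 7.35 in shControl cells. Both knockdown lines were above shControl cells, by 4.66 in the shCDK8 line and 1.19 in the shCDK19 line, and SEMA3A was 11.1-fold higher in the shCDK8 line (3.47 ± 0.086, adjusted p = 3.97e-09). TNFSF18, the ligand of the receptor GITR and the nearest protein-coding neighbour of TNFSF4 on chromosome 1, read 8.62, 8.80 and 8.46 in shCDK8 cells, 7.14, 7.22 and 6.82 in shCDK19 cells and 4.89, 4.77 and 4.95 in shControl cells. All 3 lines were separated, with shCDK8 cells 2.97-fold above shCDK19 cells (1.57 ± 0.11, adjusted p = 6.35e-06). Of 15 TNF family ligands tested 3 passed, all 3 higher, the third being TNFSF9, the 4-1BB ligand, at 0.34 ± 0.041. That is no larger a share than the 26% of all genes that passed, and the median of the list was -0.03.

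TM4SF18 and TM4SF1, genes for multi-pass membrane proteins of the L6 family, also rank among the highest. They lie on chromosome 3 with 0 protein-coding genes between them. TM4SF1, an antigen found on many carcinomas, read 9.25, 9.38 and 9.39 in shCDK8 cells, 6.01, 5.92 and 5.96 in shCDK19 cells and 5.84, 5.84 and 5.69 in shControl cells, and TM4SF18 read 9.86, 10.24 and 9.79 in shCDK8 cells, 6.02, 6.29 and 5.87 in shCDK19 cells and 5.33, 5.44 and 5.30 in shControl cells. Both were higher in shCDK8 than in shCDK19 cells, by 3.90 ± 0.13 for TM4SF18 (15-fold, adjusted p = 2.70e-08) and 3.38 ± 0.062 for TM4SF1 (10.4-fold, adjusted p = 6.43e-10). Against shControl TM4SF18 was higher by 4.60 in the shCDK8 line and by 0.70 in the shCDK19 line (adjusted p = 0.0049 for the shCDK19 line), and TM4SF1 by 3.55 in the shCDK8 line, while in the shCDK19 line it did not pass (0.17). The other members of the family were apart by less: of 5 tested these 2 passed, and the median of the list was -0.02, which turned positive with each array's median subtracted.

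The promoters of this neighbouring pair are shown beside those of DPP4 and SLC38A5, the genes with the largest negative differences, so that a high pair of neighbours can be read beside the lowest genes. The sequences are from RefSeq on GRCh38.p14 and run 5′ to 3′ from 250 bases before to 50 bases after the annotated start. Capitals mark matches to CATTCC (or GGAATG on the other strand), the core recognised by TEAD factors, and to CACGTG, the E-box of MYC-like factors.
TM4SF18: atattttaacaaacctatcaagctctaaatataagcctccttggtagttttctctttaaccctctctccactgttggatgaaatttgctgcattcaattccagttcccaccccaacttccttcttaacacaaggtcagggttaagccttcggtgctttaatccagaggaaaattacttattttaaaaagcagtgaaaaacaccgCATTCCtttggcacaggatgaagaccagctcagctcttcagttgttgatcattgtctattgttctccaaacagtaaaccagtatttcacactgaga
TM4SF1: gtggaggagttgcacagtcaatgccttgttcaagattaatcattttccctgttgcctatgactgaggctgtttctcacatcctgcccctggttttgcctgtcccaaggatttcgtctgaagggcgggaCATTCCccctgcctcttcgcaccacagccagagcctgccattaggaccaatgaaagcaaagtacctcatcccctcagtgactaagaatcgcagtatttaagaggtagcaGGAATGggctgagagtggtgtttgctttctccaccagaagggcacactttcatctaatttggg
DPP4: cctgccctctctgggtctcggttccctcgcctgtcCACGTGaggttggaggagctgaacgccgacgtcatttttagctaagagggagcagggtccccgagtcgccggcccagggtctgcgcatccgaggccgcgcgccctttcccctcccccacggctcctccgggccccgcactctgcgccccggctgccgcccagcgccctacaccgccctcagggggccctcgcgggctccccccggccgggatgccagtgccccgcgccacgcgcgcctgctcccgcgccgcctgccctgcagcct
SLC38A5: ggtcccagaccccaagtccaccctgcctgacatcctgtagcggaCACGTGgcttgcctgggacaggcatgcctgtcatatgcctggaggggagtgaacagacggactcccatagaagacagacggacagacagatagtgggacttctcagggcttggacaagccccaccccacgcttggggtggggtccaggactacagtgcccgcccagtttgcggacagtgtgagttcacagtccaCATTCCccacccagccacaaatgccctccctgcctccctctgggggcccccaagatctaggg
TM4SF18 lies at chr3:149333587-149333886, TM4SF1 at chr3:149377600-149377899, DPP4 at chr2:162074166-162074465 and SLC38A5 at chrX:48470211-48470510, all on the minus strand. CATTCC occurred in TM4SF18 at position -46 from the start, in TM4SF1 at -122 and -13 and in SLC38A5 at -12, and 14% of the 35116 promoters of the same length hold it on either strand. CACGTG occurred in DPP4 at -215 and in SLC38A5 at -206, and 7.26% of promoters hold it. Neither CACCTG (or CAGGTG), the E-box of Snail factors, nor TGANTCA, the AP-1 element, occurred in these 4 windows, against 20.6% and 7.71% of all promoters. No match overlapped another, the motifs were chosen with the differences known, and a match describes the letters only.

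Further high genes encode receptors, transporters and enzymes. EDA2R, a receptor of ectodysplasin, read 9.15, 8.76 and 8.63 in shCDK8 cells, against 6.08, 6.02 and 6.31 in shCDK19 cells, a difference of 2.71 ± 0.14, adjusted p = 5.61e-07. GPR15, a receptor that guides lymphocytes to the colon, read 8.21, 8.17 and 8.24 in shCDK8 cells, against 5.88, 5.63 and 5.98 in shCDK19 cells (2.38 ± 0.14, adjusted p = 1.76e-06). In both genes the shCDK19 and shControl arrays overlapped, and the shCDK19 line did not pass against shControl (0.22 for EDA2R, -0.12 for GPR15). SLC5A1, the sodium-glucose cotransporter SGLT1, was 5.08-fold higher in shCDK8 cells, with 8.52, 8.59 and 8.67 in shCDK8 cells, against 6.13, 6.52 and 6.09 in shCDK19 cells (2.35 ± 0.13, adjusted p = 9.91e-07). SLCO3A1, an organic anion transporter, differed by 2.53 ± 0.063, ARSJ, a sulfatase, by 2.53 ± 0.063, and AOAH, which removes acyl chains from bacterial lipopolysaccharide, by 2.38 ± 0.10 (adjusted p of 3.97e-09, 3.97e-09 and 1.80e-07). DAPK1, a calcium-regulated kinase linked to cell death, was higher by 1.97 ± 0.11 (adjusted p = 7.38e-07). In these 7 genes the shCDK8 line was the one far from shControl cells, by 1.66 in DAPK1 to 2.93 in EDA2R, and the shCDK19 line differed from them by -0.31 in DAPK1 to 0.53 in SLC5A1.

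In 4 of the 15 highest genes the shCDK19 line was below shControl cells. PRKAA2, the alpha-2 catalytic subunit of AMP-activated protein kinase, read 8.87, 8.91 and 8.57 in shCDK8 cells, 6.72, 6.32 and 6.54 in shCDK19 cells and 8.74, 8.58 and 8.95 in shControl cells. The shCDK8 and shControl arrays overlapped and the shCDK19 arrays lay below both, so that PRKAA2 was 4.78-fold higher in shCDK8 than in shCDK19 cells (2.26 ± 0.13, adjusted p = 1.25e-06). PXDN, peroxidasin, which crosslinks collagen IV, read 9.57, 9.55 and 9.60 in shCDK8 cells, 6.64, 6.51 and 7.03 in shCDK19 cells and 9.05, 9.07 and 9.09 in shControl cells (2.85 ± 0.11, adjusted p = 7.01e-08). KLF12, a Krüppel-like transcriptional repressor, differed by 2.31 ± 0.064 and ANXA10, an annexin, by 1.88 ± 0.13 (adjusted p of 7.37e-09 and 5.34e-06). Against shControl cells the shCDK19 line was lower by -2.34, -2.15, -2.24 and -1.46 in PXDN, KLF12, PRKAA2 and ANXA10. In PXDN and ANXA10 the shCDK8 line was also above shControl, by 0.50 and 0.42 (adjusted p of 0.00804 and 0.0452), and in KLF12 and PRKAA2 it did not pass.

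Among the lowest genes were a peptidase and several transporters. DPP4, a brush border peptidase that cleaves incretin hormones, read 5.77, 5.98 and 6.19 in shCDK8 cells, 9.58, 9.60 and 9.53 in shCDK19 cells and 9.07, 8.89 and 8.92 in shControl cells. The shCDK8 arrays were far below both other lines, the shCDK19 line was above shControl by 0.61 (adjusted p = 0.00112), and DPP4 was 12.1-fold lower in shCDK8 than in shCDK19 cells (-3.59 ± 0.09, adjusted p = 3.97e-09). SLC38A5, a transporter of glutamine and other neutral amino acids, read 6.94, 6.67 and 6.94 in shCDK8 cells, 10.23, 10.37 and 10.24 in shCDK19 cells and 9.83, 9.80 and 9.83 in shControl cells and was 10.8-fold lower (-3.43 ± 0.071, adjusted p = 1.34e-09). SLC1A3, a glutamate and aspartate transporter, read 7.71, 7.69 and 7.35 in shCDK8 cells, 10.53, 10.62 and 10.46 in shCDK19 cells and 9.01, 9.02 and 9.15 in shControl cells. Here the lines parted from shControl cells in opposite directions, -1.48 in shCDK8 and 1.48 in shCDK19 cells, and differed by -2.95 ± 0.089 (adjusted p = 1.27e-08). SLC6A20, a proline transporter, showed the same arrangement, with -1.45 in shCDK8 and 1.01 in shCDK19 cells against shControl and a difference of -2.46 ± 0.11 (adjusted p = 2.28e-07). Of 29 amino acid transporters tested 5 were higher and 7 lower, beside 14.7% and 11.2% of all genes, with a median of 0.03. The highest was SLC43A2, a carrier of large neutral amino acids, at 0.80 ± 0.065.

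Opposite movement from shControl cells was also seen in genes of other roles. ZNF266, a zinc finger protein, read 5.67, 5.67 and 5.60 in shCDK8 cells, 8.61, 8.76 and 8.44 in shCDK19 cells and 7.50, 7.64 and 7.62 in shControl cells, the shControl arrays lying between the knockdown lines. SELENOP, the secreted selenium carrier, and TNNC1, the troponin C of slow and cardiac muscle, stood in the same order, with differences of -2.69 ± 0.087 and -2.51 ± 0.14 (adjusted p of 1.82e-08 and 9.10e-07). The shCDK8 line carried most of the gap in RGS2, an inhibitor of Gq signalling (-2.81 ± 0.047, adjusted p = 4.63e-10), in NFIB, a transcription factor of the nuclear factor I family (-2.65 ± 0.081, adjusted p = 1.37e-08), in PRAF2, a protein of internal membranes (-2.56 ± 0.044, adjusted p = 4.63e-10), in LIPG, endothelial lipase (-2.54 ± 0.071, adjusted p = 8.04e-09), and in CYP4F11, a fatty acid hydroxylase (-2.60 ± 0.085, adjusted p = 1.82e-08). Against shControl cells these 5 were between -2.40 and -3.42 in the shCDK8 line and between -0.82 and 0.41 in the shCDK19 line.

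The shCDK19 line carried most of the gap in DCLK1, TGM2 and ITGBL1. It was above shControl cells in 11 of the 15 lowest genes, and in 8 of these the shCDK8 line was below them. DCLK1, a microtubule-associated kinase known as a tuft cell marker, read 6.88, 6.82 and 6.80 in shCDK8 cells, 9.39, 9.54 and 9.45 in shCDK19 cells and 6.28, 6.14 and 6.25 in shControl cells. The shCDK19 arrays were above all others, by 3.23 against shControl, where the shCDK8 line differed by 0.61. TGM2, transglutaminase 2, read 8.52, 8.46 and 8.51 in shCDK8 cells, 10.96, 11.11 and 10.92 in shCDK19 cells and 8.71, 8.73 and 8.72 in shControl cells and ITGBL1, an integrin beta-like protein, read 6.54, 6.25 and 6.41 in shCDK8 cells, 8.94, 9.01 and 8.84 in shCDK19 cells and 6.57, 6.65 and 6.51 in shControl cells. Differences between the lines were -2.62 ± 0.11 for DCLK1, -2.50 ± 0.074 for TGM2 and -2.53 ± 0.082 for ITGBL1 (adjusted p of 1.23e-07, 1.11e-08 and 1.82e-08).

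**Figure D3:**
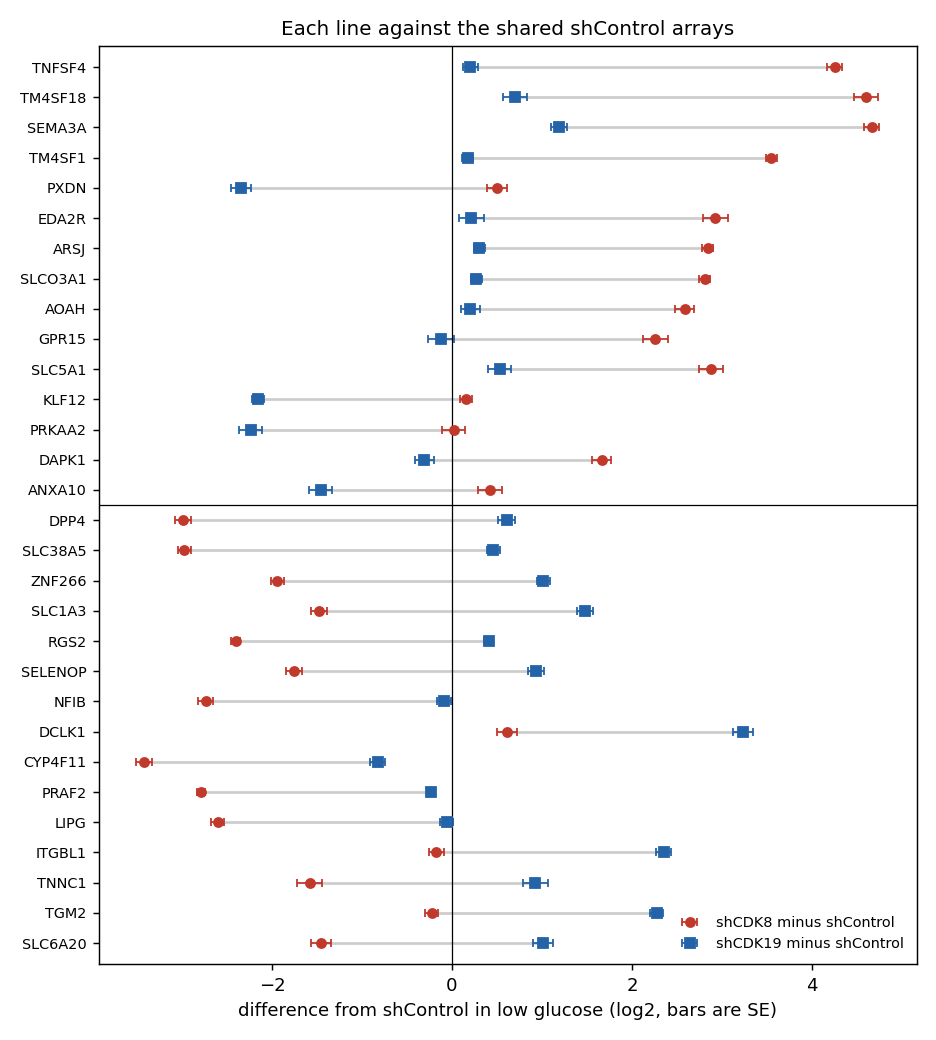
Difference of each knockdown line from the shared shControl arrays in low glucose (log2, bars are SE) for the 15 highest and 15 lowest genes, red circles shCDK8 and blue squares shCDK19. In TNFSF4, TM4SF1, NFIB and LIPG the red point is far from 0 and the blue point near it, while PXDN, KLF12, PRKAA2 and ANXA10 above the line and DCLK1, ITGBL1 and TGM2 below it have the blue point far from 0.

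At the dim end, 2 genes passed with 1 line at the floor on all 3 arrays, which leaves only a bound there. EPGN, epigen, was at the floor in shCDK19 cells and read 4.41 to 4.56 in shCDK8 cells. FSTL5, a follistatin-like protein, was at the floor in shCDK8 cells and read 4.43 to 4.59 in shCDK19 cells. A further 180 genes were at the floor on all 6 arrays.

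The genes of the kinase module other than the targets differed by little. MED13L, a paralog of the MED13 subunit that links the module to Mediator, was higher in shCDK8 cells (0.42 ± 0.037, adjusted p = 2.50e-05), and the gap came from the shCDK19 line, -0.43 against shControl cells. MED12, which activates the kinase, differed by 0.32 ± 0.054, whereas CCNC, cyclin C, was lower (-0.22 ± 0.058, adjusted p = 0.0187), a call lost without shCDK8 replicate 1 or 3, without shCDK19 replicate 2 or 3, with all 35 arrays in 1 fit, in a fit of the 6 compared arrays alone and with each array's median subtracted. Of the 6 module genes tested, CDK19 included, 5 were higher and 1 was lower, with a median of 0.33, and 3 were higher in a fit of the 6 compared arrays alone. Among 24 core Mediator genes 4 were higher and 1 was lower, beside 14.7% and 11.2% of all genes, with a median of 0.04. MED17 had the largest difference (0.39 ± 0.078, adjusted p = 0.00447). The count of higher core genes was 2 without shCDK8 replicate 1, without shCDK19 replicate 1 or without shCDK19 replicate 3, and 7 without shCDK19 replicate 2.

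Genes of glucose use were lower in shCDK8 cells or not past the test. Of 20 genes of glucose uptake and glycolysis 6 were lower and the other 14 did not pass, with a median of -0.15 against -0.01 over all genes tested. The lower count ran from 4 with each array's median subtracted to 10 with a trended and robust variance estimate. In some settings 1 gene was higher, among them that variance estimate and all 35 arrays in 1 fit. SLC2A3, the high-affinity glucose transporter GLUT3, read 8.45, 8.42 and 8.46 in shCDK8 cells, 10.00, 10.02 and 9.97 in shCDK19 cells and 9.96, 9.74 and 9.60 in shControl cells. Its shCDK8 arrays were below those of both other lines, which lay close (-1.55 ± 0.078, adjusted p = 4.57e-07). ALDOC, an aldolase, followed with -1.21 ± 0.089, then PFKM, a phosphofructokinase, with -0.34 ± 0.052 and PDK1, which holds back pyruvate dehydrogenase, with -0.31 ± 0.066. SLC5A1, described above, is a glucose carrier outside this list and ran the other way.

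Regulators of the glucose response were mixed. TXNIP, an arrestin that curbs glucose uptake and is induced by glucose through the MondoA and ChREBP factors, read 5.51, 5.43 and 5.60 in shCDK8 cells, 5.86, 5.81 and 5.81 in shCDK19 cells and 5.53, 5.45 and 5.43 in shControl cells. It was lower in shCDK8 than in shCDK19 cells (-0.31 ± 0.086, adjusted p = 0.0231). This call was lost without shCDK8 replicate 1 or 2, without shCDK19 replicate 1 or 3, and with all 35 arrays in 1 fit. Against shControl the shCDK19 line was higher (0.36, adjusted p = 0.0158) and the shCDK8 line did not pass (0.04). All these TXNIP readings were dim, with log2 values under 6. ARRDC4, a related arrestin, differed by -0.31 ± 0.12 and did not pass (adjusted p = 0.0818), although it did without shCDK19 replicate 3 and with dim genes left out. MLXIP, which encodes MondoA, was higher by 0.26 ± 0.049, and KLF10, a TGF-beta-responsive factor, by 0.66 ± 0.07 (adjusted p = 8.93e-05). Over the 8 genes of this list 2 were higher and 2 lower, with a median of 0.10, and the lower count was 1 without shCDK8 replicate 1 or 3 and 0 without shCDK8 replicate 2 or shCDK19 replicate 1. Of 8 AMP-activated kinase subunits 2 were higher, PRKAA2 and PRKAB2 (0.23 ± 0.056), and 4 lower, among them the other catalytic subunit PRKAA1 (-0.27 ± 0.041, adjusted p = 0.000987). The count of 4 lower subunits was 1 without shCDK8 replicate 1 or shCDK19 replicate 1 and 2 without shCDK19 replicate 3.

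Hypoxia-inducible factor targets, many of which serve low-oxygen metabolism, were lower in 10 and higher in 2 of 19 genes, with a median of -0.17. ADM, the vasodilator adrenomedullin, read 9.01, 8.88 and 9.02 in shCDK8 cells, 10.08, 9.93 and 10.02 in shCDK19 cells and 9.59, 9.67 and 9.44 in shControl cells (-1.04 ± 0.07, adjusted p = 4.15e-06). EGLN3, a prolyl hydroxylase that marks the factor for decay, differed by -0.60 ± 0.098 and P4HA1, a collagen prolyl hydroxylase, by -0.58 ± 0.064. ANGPTL4, a lipoprotein lipase inhibitor, was higher (0.49 ± 0.13, adjusted p = 0.0184), a call lost without shCDK8 replicate 1 or 2. Nuclear-encoded subunits of oxidative phosphorylation were lower in 12 of 36 genes, and the other 24 did not pass, with a median of -0.12. Their differences were small, -0.40 ± 0.059 for NDUFS1 of complex I and -0.36 ± 0.052 for SDHD of complex II being the largest. The tricarboxylic acid cycle had 3 higher and 3 lower of 19 genes, beside 14.7% and 11.2% of all genes. MDH1, the cytosolic malate dehydrogenase, was the lowest of them (-0.69 ± 0.054, adjusted p = 1.11e-05).

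Most genes of DNA replication were lower in shCDK8 cells. Of 44 S phase genes 35 were lower and 1 was higher, and their median was -0.36. GINS2, a subunit of the replicative helicase complex, read 10.66, 10.49 and 10.59 in shCDK8 cells, 11.44, 11.46 and 11.40 in shCDK19 cells and 10.83, 10.68 and 10.72 in shControl cells (-0.85 ± 0.069, adjusted p = 1.31e-05). MCM4, of the same helicase, differed by -0.79 ± 0.061 and PRIM1, a primase subunit, by -0.71 ± 0.091. CCNE1, cyclin E1, which drives entry into S phase, was the 1 gene that went the other way (0.83 ± 0.055, adjusted p = 3.63e-06). In GINS2 and MCM4 the shCDK8 line did not pass against shControl (-0.16 and -0.12) and the shCDK19 line was higher (0.69 and 0.67). Over the list 2 genes were higher and 7 lower in shCDK8 cells against shControl (12.1% and 10.2% of all genes), and 19 were higher and 1 lower in shCDK19 cells (9.11% and 10.8% of all genes). In bulk RNA, fewer cells in S phase and less of these transcripts per cell cannot be told apart.

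Histones and mitotic genes showed another arrangement. Of 40 replication-dependent histone genes 21 were lower and 19 did not pass, with a median of -0.27. Against shControl cells 19 were lower in the shCDK8 line and 3 higher in the shCDK19 line (10.2% and 9.11% of all genes). H2BC7 read 8.43, 8.50 and 8.23 in shCDK8 cells, 9.33, 9.48 and 9.47 in shCDK19 cells and 9.42, 9.34 and 9.37 in shControl cells, with the shCDK8 arrays alone at the low end (-1.04 ± 0.082, adjusted p = 1.09e-05). H2BC13, H2BC14 and H4C4 differed by -1.03 ± 0.065, -0.96 ± 0.058 and -0.62 ± 0.055. Probes for these near-identical genes can share transcripts, so single histone genes are uncertain. Against shControl 15 of 43 mitotic genes were lower in shCDK8 cells and 1 in shCDK19 cells (10.2% and 10.8% of all genes). Between the knockdown lines 16 were lower and 2 higher, with a median of -0.13. The count of 16 was 10 in a fit of the 6 compared arrays alone. CDC25C, the phosphatase that triggers mitosis, read 7.52, 7.52 and 7.46 in shCDK8 cells, against 8.07, 8.14 and 8.05 in shCDK19 cells (-0.59 ± 0.069, adjusted p = 0.000168), and KIF18A, a spindle motor, differed by -0.58 ± 0.072. Among 13 G1 regulators 1 was higher, CDK6, a kinase that phosphorylates RB1 (1.13 ± 0.10, adjusted p = 2.75e-05), and 3 were lower, the largest being the inhibitor CDKN1B (-0.47 ± 0.047).

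**Figure D4:**
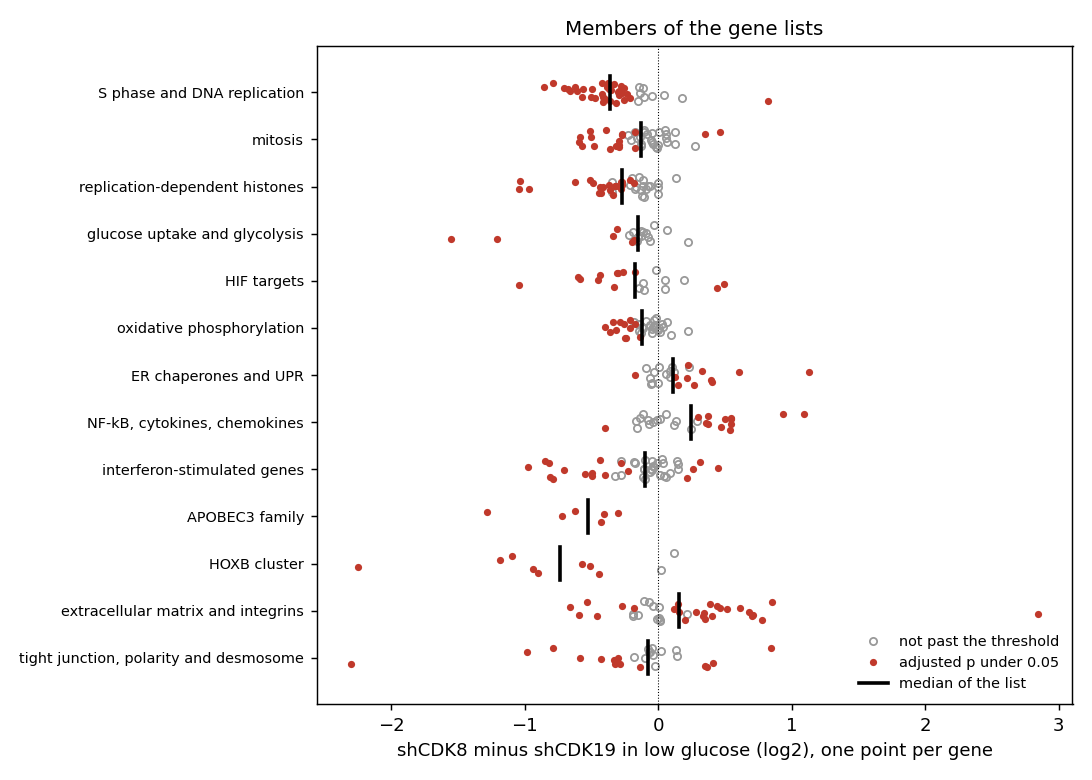
Difference between the lines in low glucose (shCDK8 minus shCDK19, log2) for the members of 13 gene lists, 1 point per gene, filled where the adjusted p was under 0.05, with the median of each list as a black bar. The bars lie left of 0 for replication, histones, APOBEC3 and HOXB genes, at -0.36, -0.27, -0.53 and -0.73, and right of 0 for NF-kB targets at 0.25 and matrix genes at 0.16.

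Chaperones and the unfolded protein response of the endoplasmic reticulum were higher in 10 and lower in 1 of 24 genes, and the median was 0.11. The lower call was lost without shCDK19 replicate 1, in a fit of the 6 compared arrays alone and with median subtraction or quantile normalization. CRELD2, a secreted chaperone-like protein induced by such stress, read 10.28, 10.40 and 10.32 in shCDK8 cells, 9.23, 9.22 and 9.16 in shCDK19 cells and 10.11, 9.97 and 10.05 in shControl cells (1.13 ± 0.049, adjusted p = 1.69e-07). SEL1L, of the degradation machinery of this organelle, differed by 0.60 ± 0.053 and MANF, a stress-induced secreted factor, by 0.39 ± 0.073. The shCDK19 line was lower than shControl in 16 of the 24 genes and the shCDK8 line in 9 (10.8% and 10.2% of all genes). ATF4 targets, the amino acid response, had 5 higher and 10 lower of 37, among them SHMT2, the mitochondrial serine hydroxymethyltransferase (-0.75 ± 0.052, adjusted p = 4.71e-06). The higher count was 3 without shCDK8 replicate 3, and the counts were 3 higher and 5 lower with all 35 arrays in 1 fit and, after median subtraction, 3 higher and 6 lower. Against shControl 14 of these 37 genes were lower in shCDK8 cells and 16 in shCDK19 cells, while 1 and 2 were higher. Sterol synthesis genes had 3 higher and 6 lower of 18, from SQLE, squalene epoxidase (-0.62 ± 0.034, adjusted p = 8.33e-07), to MVD, mevalonate diphosphate decarboxylase (0.56 ± 0.057, adjusted p = 6.28e-05). Against shControl 13 of the 18 were lower in shCDK8 and 14 in shCDK19 cells (10.2% and 10.8% of all genes). In fatty acid synthesis 6 of 13 were higher and 2 lower, and FASN, fatty acid synthase, led with 0.43 ± 0.044 (adjusted p = 6.27e-05). In a fit of the 6 compared arrays alone 2 of these 13 were higher, and 1 was lower without any 1 of the shCDK8 arrays and without shCDK19 replicate 1 or 2. Against shControl 6 of the 13 were lower in shCDK8 cells and 12 in shCDK19 cells, and 0 were higher in either line. The median was -0.15 in the shCDK8 line and -0.27 in the shCDK19 line, both against shControl.

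Inflammatory and interferon genes ran in different directions. Of 27 NF-kB targets, cytokines and chemokines 12 were higher in shCDK8 cells and 1 lower, with a median of 0.25. CXCL8, the neutrophil attractant interleukin-8, read 7.71, 7.87 and 7.59 in shCDK8 cells, 6.52, 6.60 and 6.76 in shCDK19 cells and 7.51, 7.61 and 7.46 in shControl cells. The shCDK19 line was the low one there (-0.90 against shControl), and the difference was 1.09 ± 0.099 (adjusted p = 2.95e-05). ICAM1, a leukocyte adhesion molecule, read 8.36, 8.03 and 8.25 in shCDK8 cells, 7.31, 7.28 and 7.26 in shCDK19 cells and 7.32, 7.22 and 7.11 in shControl cells, with the shCDK8 line as the high one (0.93 ± 0.091, adjusted p = 4.69e-05). TNFAIP3, the feedback inhibitor A20, differed by 0.55 ± 0.064 and the chemokine CCL20 by 0.55 ± 0.13. Of 43 interferon-stimulated genes 4 were higher and 13 lower, with a median of -0.10. IFIT1, which binds foreign RNA, read 6.22, 6.48 and 6.34 in shCDK8 cells, 7.26, 7.48 and 7.22 in shCDK19 cells and 6.58, 6.18 and 6.27 in shControl cells. The shCDK8 and shControl arrays overlapped and the shCDK19 arrays were above both (-0.97 ± 0.11, adjusted p = 0.000142). IFIT3 differed by -0.82 ± 0.079 and the membrane protein IFITM1 by -0.84 ± 0.089. Against shControl 13 genes of the list were higher and 3 lower in shCDK19 cells (9.11% and 10.8% of all genes). In shCDK8 cells 5 were higher and 5 lower, close to the shares over all genes (12.1% and 10.2%).

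The APOBEC3 cytidine deaminases, which restrict viruses and lie side by side on chromosome 22, were lower in shCDK8 than in shCDK19 cells in 6 of 6 genes tested, with a median of -0.53. The count was 4 in a fit of the 6 compared arrays alone. It was 5 with all 35 arrays in 1 fit, with median subtraction or with an unmoderated variance. Leaving out any 1 of the shCDK8 arrays, or shCDK19 replicate 1 or 2, also gave 5. APOBEC3F read 10.18, 10.19 and 10.19 in shCDK8 cells, 11.48, 11.51 and 11.39 in shCDK19 cells and 10.14, 10.07 and 10.14 in shControl cells. Its shCDK8 and shControl arrays were close, and the shCDK19 arrays lay above them (-1.28 ± 0.04, adjusted p = 1.59e-08). APOBEC3G read 6.76, 6.91 and 6.95 in shCDK8 cells, 7.69, 7.72 and 7.38 in shCDK19 cells and 5.51, 5.76 and 5.45 in shControl cells, with both knockdown lines above shControl (-0.72 ± 0.10, adjusted p = 0.000601). APOBEC3C differed by -0.62 ± 0.044. Against shControl all 6 were higher in shCDK19 cells and 3 in shCDK8 cells (9.11% and 12.1% of all genes). Probes can cross-hybridise between these paralogs, so the 6 are not independent readings.

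Another gene cluster differed as a block. Of 10 genes of the HOXB cluster, homeobox factors of chromosome 17 that set position along the body axis, 8 were lower in shCDK8 cells and the other 2 did not pass, with a median of -0.73. HOXB8 read 8.35, 8.53 and 8.27 in shCDK8 cells, 10.65, 10.65 and 10.60 in shCDK19 cells and 8.89, 8.93 and 8.88 in shControl cells. The shCDK19 arrays were high, by 1.73 against shControl, and the shCDK8 arrays low, by -0.51, a difference of -2.25 ± 0.059 between the lines (adjusted p = 4.91e-09). HOXB3 differed by -1.18 ± 0.10, HOXB4 by -1.10 ± 0.079 and HOXB5 by -0.94 ± 0.083. Over the cluster 8 genes were higher in shCDK19 cells against shControl, and 3 were lower in shCDK8 cells (9.11% and 10.2% of all genes).

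Signalling genes were divided. RNF43, a ubiquitin ligase that removes Wnt receptors, read 10.10, 10.10 and 10.09 in shCDK8 cells, 8.93, 8.88 and 8.85 in shCDK19 cells and 8.85, 8.78 and 8.82 in shControl cells (1.21 ± 0.042, adjusted p = 2.70e-08). DKK1, a secreted Wnt antagonist, was higher by 0.88 ± 0.041 and SOX4 by 0.81 ± 0.058. Yet the 26 beta-catenin and TCF targets held 5 higher and 3 lower genes, beside 14.7% and 11.2% of all genes. Their median was -0.05. BMP4, a ligand of the BMP pathway, read 12.50, 12.50 and 12.50 in shCDK8 cells, 11.28, 11.30 and 11.37 in shCDK19 cells and 10.95, 10.93 and 10.95 in shControl cells (1.18 ± 0.04, adjusted p = 2.22e-08). ID2, a target of that pathway, was lower (-0.87 ± 0.081, adjusted p = 3.46e-05), and 6 of 18 pathway genes were higher and 2 lower. SNAI2, the transcriptional repressor Slug of epithelial-mesenchymal transition, read 8.89, 8.89 and 9.11 in shCDK8 cells, 7.14, 6.98 and 7.14 in shCDK19 cells and 7.01, 6.89 and 6.87 in shControl cells, 3.67-fold higher in shCDK8 cells (adjusted p = 3.83e-07). TGFB2, a TGF-beta ligand, read 7.84, 8.10 and 7.85 in shCDK8 cells, 9.38, 9.57 and 9.45 in shCDK19 cells and 6.63, 6.43 and 6.48 in shControl cells (-1.54 ± 0.084, adjusted p = 8.59e-07). Both knockdown lines were above shControl for TGFB2, the shCDK19 line more so, and the co-receptor TGFBR3 was lower too (-1.21 ± 0.098). Of 32 genes of this transition list 12 were higher and 5 lower, with a median of 0.04.

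Growth factors and immediate early genes gave similar counts in both directions. Among 41 growth factors and receptors 11 were higher and 9 lower, and EFNB2, an ephrin ligand (1.52 ± 0.08, adjusted p = 7.10e-07), NRG1, a ligand of ERBB receptors (1.39 ± 0.072, adjusted p = 6.28e-07), and HBEGF, a ligand of the EGF receptor (0.83 ± 0.063), were highest. Of 37 immediate early genes, which serum induces within minutes, 9 were higher and 9 lower. KLF4 and KLF6 were higher by 0.99 ± 0.10 and 0.86 ± 0.053, and EGR1 was lower (-0.53 ± 0.044, adjusted p = 1.86e-05). Semaphorin signalling genes had 7 higher and 3 lower of 14, with a median of 0.23. SEMA3C, another secreted semaphorin, was higher by 1.37 ± 0.16, and NRP2, a neuropilin receptor, by 0.97 ± 0.11, whereas SEMA3D was lower by -0.71 ± 0.15. In the nuclear factor I family NFIA (-0.28 ± 0.055) was lower besides NFIB. NFIC, the other of 3 lower genes among 4, lost its call with all 35 arrays in 1 fit, in a fit of the 6 compared arrays alone, with median subtraction, quantile normalization or the dim filter, and without any 1 of the shCDK8 or shControl arrays or shCDK19 replicate 1 or 2.

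Extracellular matrix genes that passed were mainly higher in shCDK8 cells. Of 38 matrix and integrin genes 20 were higher and 6 lower, with a median of 0.16. After PXDN came MMP7, a matrix metalloproteinase (0.85 ± 0.13, adjusted p = 0.000964), and the laminin chains LAMB1 (0.77 ± 0.041) and LAMC1 (0.71 ± 0.067). LAMC1 was low in the shCDK19 line (-0.95 against shControl), LAMB1 high in the shCDK8 line (0.58). Of 25 genes of tight junctions, polarity and desmosomes 4 were higher and 10 lower, with a median of -0.07. MPP7, a polarity scaffold, read 8.69, 9.05 and 8.73 in shCDK8 cells, 11.06, 11.19 and 11.13 in shCDK19 cells and 10.86, 10.88 and 10.99 in shControl cells (-2.30 ± 0.089, adjusted p = 6.89e-08). AP1M2, a sorting adaptor of epithelial cells, and CGN, cingulin, were lower by -0.98 ± 0.04 and -0.79 ± 0.063, and DSP, desmoplakin, was higher (0.85 ± 0.06, adjusted p = 5.34e-06). Of 38 intestinal differentiation genes 5 were higher and 6 lower, beside 14.7% and 11.2% of all genes. The lowest after DPP4 was the mucin MUC13 (-0.82 ± 0.095, adjusted p = 0.000158). Among xenobiotic and NRF2 genes 3 of 26 were higher, with HMOX1, heme oxygenase 1, at 1.09 ± 0.075, and 7 lower, with CYB5A, cytochrome b5, at -1.83 ± 0.047.

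The comparison of the same lines in normal growth used other arrays and came from a fit of all 35 arrays. There 5043 genes passed (27.4%), 2436 higher in shCDK8 cells (13.2%) and 2607 lower (14.2%). Passing in both conditions with the same direction were 2364 genes, 49.5% of those called in low glucose and 46.9% of those called in normal growth, and 291 passed in opposite directions. With the low glucose calls taken from that same fit, 3949 in number, 2129 were shared in direction, 53.9% of those in low glucose and 42.2% of those in normal growth, and 265 were opposed. Of the genes at least 2-fold apart, 106 were shared in direction, 50.2% of 211 in low glucose and 34.3% of 309 in normal growth, and 3 were opposed. The lines' difference itself differed between the conditions in 2152 genes (11.7%), of which 1258 were more positive in low glucose (6.84%) and 894 more negative (4.86%). It also did so in 20 of the 30 highest and lowest genes. Those 30 had been picked by their low glucose differences, which enter this test, so that count was favoured by the choice. Medium, experiment and condition change together here and cannot be told apart.

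Several of the largest differences had similar values in both conditions. DPP4 differed by -3.59 in low glucose and -3.61 in normal growth, SLC38A5 by -3.43 and -3.56, SEMA3A by 3.47 and 3.61, and TNFSF4 by 4.05 and 4.45. For these genes the difference between conditions did not pass, with values from -0.40 ± 0.15 for TNFSF4 to 0.12 ± 0.14 for SLC38A5. Other genes separated the lines mainly in low glucose. TM4SF1 read, in normal growth, 6.30, 6.18 and 6.34 in shCDK8 cells, against 5.64, 5.70 and 5.93 in shCDK19 cells. The lines were thus 0.52 apart there and 3.38 apart in low glucose, a gap of 2.86 ± 0.14 (adjusted p = 3.92e-13). SLC5A1 read, in normal growth, 5.81, 5.83 and 5.70 in shCDK8 cells, against 5.76, 5.49 and 5.80 in shCDK19 cells, a difference of 0.10 ± 0.12 that did not pass. DCLK1 was higher in shCDK8 cells in normal growth (0.56) and lower in low glucose (-2.62), and SUSD2, a sushi domain membrane protein, likewise (0.72 and -2.38).

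Another set of genes was further apart between the lines in normal growth than in low glucose. LYZ, lysozyme, read 6.79, 7.18 and 6.79 in shCDK8 cells, against 6.64, 7.14 and 6.73 in shCDK19 cells in low glucose, where the arrays overlapped (0.09 ± 0.14, adjusted p = 0.72), and in normal growth 10.39, 10.65 and 10.74 in shCDK8 cells, against 6.66, 6.40 and 6.34 in shCDK19 cells, a difference of 4.13 ± 0.13. TNFSF18 differed by 1.57 in low glucose and 5.21 in normal growth, and APOBEC3G by -0.72 and 2.53, with the sign reversed. RAB25, an epithelial GTPase of recycling vesicles, read, in normal growth, 7.77, 8.33 and 8.23 in shCDK8 cells, against 11.03, 10.95 and 10.81 in shCDK19 cells. It was -2.82 apart there and -0.36 in low glucose. S100A14, a calcium-binding protein of epithelia (-0.33 in low glucose and -2.65 in normal growth), AP1M2 (-0.98 and -3.10) and CYB5A (-1.83 and -4.22) showed the same order, and SKAP2, a signalling adaptor, changed sign (1.12 and -1.48). CDH1, E-cadherin, chosen after its values were seen, read 11.64, 11.71 and 11.65 in shCDK8 cells, against 11.73, 11.75 and 11.58 in shCDK19 cells in low glucose and 8.99, 9.21 and 9.28 in shCDK8 cells, against 11.27, 11.30 and 11.27 in shCDK19 cells in normal growth. Its lines overlapped in low glucose (-0.02 ± 0.052, adjusted p = 0.845) and were -2.12 ± 0.072 apart in normal growth.

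The lists followed these genes in part. Over all genes 13.2% were higher and 14.2% lower in shCDK8 cells in normal growth. The difference between conditions was positive in 6.84% of all genes and negative in 4.86%. In normal growth 18 of 25 junction and polarity genes were lower in shCDK8 cells and 2 higher, with a median of -0.60, and the difference between conditions was positive in 16 and negative in 1. HOXB genes showed the opposite: 2 of 10 were lower in normal growth and 1 higher, and the difference between conditions was negative in 7. HOXB8 was -0.24 apart in normal growth. APOBEC3 genes were higher in shCDK8 cells in 4 of 6 in normal growth and did not pass in the other 2, and the difference between conditions was negative in 5. S phase genes were lower in 34 and higher in 2 of 44 in normal growth, and the difference between conditions was positive in 5 and negative in 1. Interferon-stimulated genes had 7 higher and 6 lower of 43 in normal growth, with 9 negative differences between conditions, and sterol synthesis genes had 13 lower and 1 higher of 18, with 9 positive and 1 negative.

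**Figure D5:**
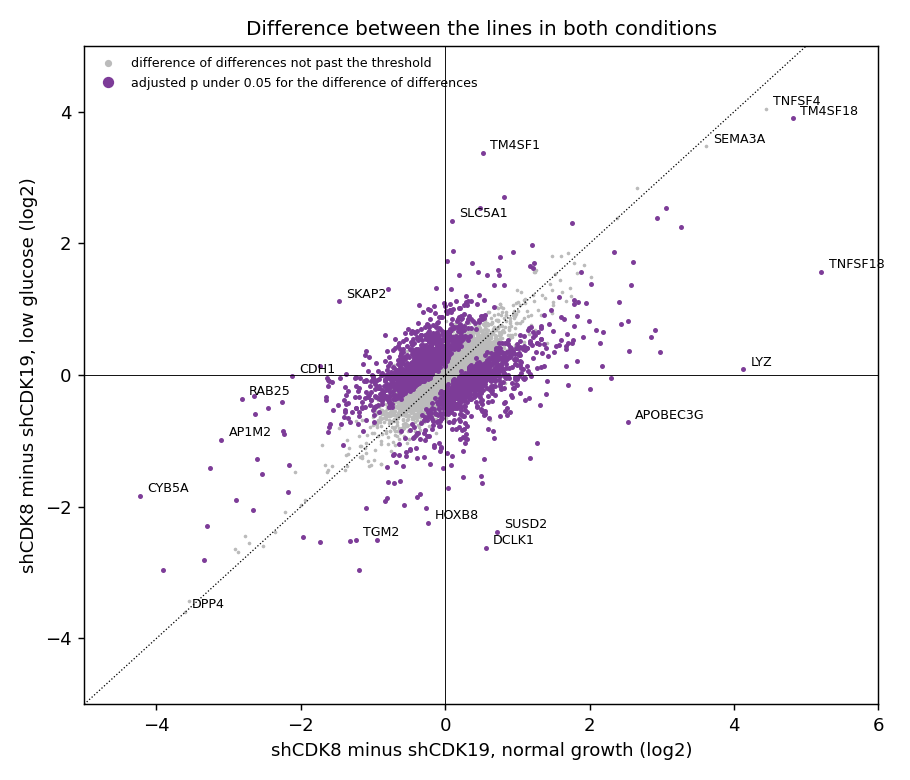
Difference between the lines (shCDK8 minus shCDK19, log2) in low glucose on the vertical axis against normal growth on the horizontal axis, 1 point per gene, purple where the difference between conditions passed. DPP4, SEMA3A and TNFSF4 lie close to the dotted line of equal differences, TM4SF1, SLC5A1, HOXB8 and DCLK1 lie near the vertical axis, and LYZ and CDH1 lie close to the horizontal axis, with 4.13 and -2.12 in normal growth.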

How the data were processed

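Column-purified total RNA went onto 1 array per sample, per the labels' protocols. The deposited values are on the log2 scale, judged from their range (a floor of 4.32 and a highest value of 14.3), and the authors processed the scans in Partek (version unstated), according to the submitters' processing notes. How background, probe summary and normalization were handled is not given in the sources used here. Folds of genes near the floor come out too small, and a shared normalization can hide a change of most genes in 1 direction, so differences are relative to the other genes.

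Arrays were grouped by title. No 2 arrays held identical values (0 identical pairs). Of 32321 transcript clusters 19158 had 1 gene symbol, 1388 several and 11775 none listed in the platform annotation, and 19128 of the 19158 matched the gene table of RefSeq. For 637 genes with several clusters the cluster with the highest mean was kept, which left 18404 genes.

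Group means came from limma 3.58.1 (lmFit, then eBayes; R 4.3.3, data.table version 1.17.8), fitted over the 12 arrays of the glucose experiment, which also holds shControl cells in high glucose (8 residual degrees of freedom). The normal growth difference and the difference between conditions came from 1 fit of all 35 arrays (21 residual degrees of freedom). These also hold cells under 5-fluorouracil, DMSO or hypoxia, whose arrays share in the spread behind those p-values. Tests are two-sided. The scripts were tested on simulated data.

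The comparison, the 41 gene lists (955 genes, 882 tested) and the naming rule were chosen with earlier results of these data known. The rule names both targets, TXNIP and ARRDC4, the 15 highest and 15 lowest genes past the threshold without overlap or floor, floor genes, up to 4 members per list and up to 5 genes in each direction for the difference between conditions, and the text gives fewer. Alternatives were other sets of arrays in the fit, a replicate block, single arrays left out, median subtraction, quantile normalization, a filter on dim genes (mean log2 value under 6), a trended and robust or an unmoderated variance, and the mean over clusters. Leaving out normal growth arrays and taking both conditions' calls from 1 fit were chosen after seeing the data.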

Additional observations from a re-analysis of the deposited data

Results flagged for a closer look

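The difference between the lines (shCDK8 minus shCDK19) was tested for a difference between low glucose and normal growth, and 2152 genes passed. Values below are low glucose minus normal growth on the log2 scale, for named genes that passed. Among the genes chosen for this difference, TM4SF1 had 2.86, SKAP2 2.60, RAB25 2.46, CYB5A 2.39 and S100A14 2.32 on the positive side. On the negative side were LYZ with -4.04, TNFSF18 with -3.64, APOBEC3G with -3.25, DCLK1 with -3.19 and SUSD2 with -3.09.

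The highest and lowest genes had been picked by their low glucose differences, which enter these values, so larger differences there were favoured by the choice. Of the highest genes in low glucose, TM4SF1 and 6 others had a more positive difference there, the 6 being SLC5A1 (2.25), ARSJ (2.05), EDA2R (1.90), ANXA10 (1.77), DAPK1 (0.77) and KLF12 (0.55). A more negative one was found for PRKAA2 (-1.01), TM4SF18 (-0.92), AOAH (-0.55) and SLCO3A1 (-0.52), which lay further apart in normal growth. Of the lowest genes, DCLK1 had the sign reversed in normal growth, and ZNF266 (-1.77), TNNC1 (-1.56), TGM2 (-1.26), ITGBL1 (-1.21), LIPG (-0.80) and SLC6A20 (-0.50) were further apart in low glucose. The lowest genes SLC1A3 (0.95) and RGS2 (0.53) were further apart in normal growth. No group of 4 or more arrays entered the comparison, so single arrays were not screened for outlying values.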

How the results depend on the processing

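Across the alternatives that changed the fit, scaling, filter or variance, the count of genes that differed between the lines ran from 3326 (only the compared arrays in the fit) to 5074 (trended and robust variance), against 4778, and with single arrays left out from 3914 to 4918. Left-out ranges were 3227 to 4355 for shCDK8 against shControl, 2700 to 3701 for shCDK19 against shControl, 1753 to 2076 for the difference between conditions, -2.31 to -2.07 for the CDK8 cluster and 1.47 to 1.64 for CDK19. With each array's median subtracted, the median of all genes was 0.01 in place of -0.01, and the difference between conditions passed in 1059 genes on the positive and 531 on the negative side (66.6% positive, against 58.5%). It was 1047 and 999 without shCDK8 replicate 1 of normal growth. Deviations of same-numbered shCDK8 and shCDK19 arrays in low glucose from their group means correlated at 0.015, 0.311 and 0.272. The same number was the best match for shCDK8 replicates 2 and 3 but not for replicate 1. Whether the numbers pair the arrays cannot be told from these values. With the replicate block 4762 genes differed between the lines, 4060 and 3617 passed against shControl in shCDK8 and shCDK19, and 2253 passed between conditions. Over 176 named differences, 154 held their call under every setting run for them and 22 lost or gained it in at least 1. Sign changes were counted only where the main or the alternative value passed, and there were 0. The 30 highest and lowest genes held theirs in 539 of 539 values. They had been picked in these same arrays for the largest differences past the test, so this outcome was largely set by the choice. Near 0, the list medians of ATF4 targets, sterol synthesis, immediate early genes, growth factors and dipeptidyl peptidases changed sign with the scaling. In list counts, a fit of the compared arrays alone gave 1 lower AMP-activated kinase subunit, 3 higher ATF4 targets and 2 higher interferon-stimulated genes, against 4, 5 and 4. The cause of these shifts was not tested. The floor and 3 arrays per line limit dim genes most.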

Other observations

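Lists not described above gave these values for shCDK8 minus shCDK19 in low glucose. Of 32 ribosome biogenesis genes 6 were higher and 6 lower, beside 14.7% and 11.2% of all genes. Among them were RRP9, a component of the small nucleolar RNA-protein complex (0.37 ± 0.071, adjusted p = 0.00372), and NOLC1, a nucleolar phosphoprotein (-0.32 ± 0.062, adjusted p = 0.00346). The higher count was 3 without shCDK19 replicate 3 and 2 in a fit of the compared arrays alone, and the lower count was 3 without shCDK19 replicate 1 or with each array's median subtracted. Of 31 cytosolic ribosomal protein genes 2 were higher and 2 lower, the largest difference being that of RPS7 (-0.38 ± 0.051, adjusted p = 0.000388), and these counts were unstable: the higher one was 0 without shCDK8 replicate 1 or shCDK19 replicate 3 and 1 without any other array of the knockdown lines, and the lower one was 4 without shCDK19 replicate 2 and 6 with a trended and robust variance. Among 8 dipeptidyl peptidase genes DPP9, a cytosolic relative of DPP4, was the 1 that was higher (0.41 ± 0.06, adjusted p = 0.000655), and 2 were lower, of which DPP7 lost its call without shCDK8 replicate 2 or 3 and without any 1 of the shCDK19 arrays.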
